A study of Mus musculus with 29 samples.

Results

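The table of expression values lists 30025 genes, and 42 of them have a symbol that begins with Nduf, the name given to nuclear genes of respiratory complex I. They comprise 7 core subunits, 29 supernumerary subunits, 4 assembly factors and 2 relatives, Ndufa4 and Ndufa4l2. RNA was sequenced from 29 libraries of sorted mouse bone marrow cells in 6 groups. The 5A3+/del mice carry a heterozygous germ line deletion of an interval that lies in band 5A3 of chromosome 5. The deletion was made with Cre in embryonic stem cells between loxP sites at Fbxl13 and Srpk2, and the mice were bred onto C57BL/6J. The study used WT littermates in other experiments, but for the RNA it states only 5 mice of each genotype. All the mice were untreated and 12.42 to 13.85 weeks old. Each of 5 WT and 5 5A3+/del mice gave CD150hi HSC, CD150lo HSC and CD150neg MPP, except that CD150neg MPP from 5A3+/del replicate 5 were not analysed here, so that group has 4 libraries. All 3 populations were sorted as lineage-negative Sca-1+ c-kit+ cells without CD41 and CD48, and CD150, the product of Slamf1, parted them. The deletion is present in every cell of the mouse, and a replicate number within a genotype stands for 1 mouse in all 3 populations, whereas equal numbers in the 2 genotypes stand for different mice.

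Complex I is the entry point of the mitochondrial respiratory chain: it oxidizes NADH, passes the electrons to ubiquinone and pumps protons across the inner membrane. Its matrix arm holds the NADH-oxidizing N module and the ubiquinone-binding Q module, and its membrane arm holds the proton pumps in a proximal and a distal part. The core subunits carry out catalysis, and the pumping core subunits are encoded by the mitochondrial genome as the mt-Nd genes. Supernumerary subunits surround the core and stabilize it. Assembly factors help to put the modules together and are not part of the finished enzyme. Haematopoietic stem cells are known to rely on glycolysis more than their progeny.

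The libraries held 21229468 to 38797734 fragments, a range that the low FPKM values allowed to be read off. In the 5A3+/del libraries, the summed normalized FPKM of 11 expressed genes between Fbxl13 and Srpk2 was 62.7% to 75.8% of the WT mean of the same population. In the WT libraries it was 94.1% to 111%. The median log2 difference of these genes by genotype was -0.77, -0.78 and -0.98 in CD150hi HSC, CD150lo HSC and CD150neg MPP, where 11, 11 and 10 of them were lower. None of the 42 Nduf genes lies on chromosome 5. Xist was at 234 to 319 FPKM in the libraries of WT replicate 3. It was at most 0.470 FPKM in the other 9 mice, every 5A3+/del mouse among them. The part of this imbalance in the comparisons by genotype, those of the X-linked Ndufa1 and Ndufb11 included, was not tested. Mean Slamf1 in WT mice was 14.4 normalized FPKM in CD150hi HSC, against 1.59 and 0.142 in the other populations, and Kit averaged at least 139.9 in every group. The summed FPKM of 3 T cell markers, none of which passed the filter, stayed at or below 1.56 in all libraries, that of 6 granulocyte and monocyte markers was 179 to 330.0, and that of 4 B cell markers 6.02 to 31.8. Of the granulocyte and monocyte markers 5 passed the filter, and of the B cell markers 2. Ctsg, Ly6g and Pax5 had a median FPKM under 0.05 in every group. The part of other cell types in the results was not tested.

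All 42 genes were listed, and 41 passed the filter on low values (FPKM of at least 1 in at least 4 libraries). The 41 include the relative Ndufa4 and are called complex I genes below for short. Ndufa4l2, a relative of Ndufa4 that hypoxia is known to induce, did not pass, with 0 to 0.140 FPKM. Over all libraries, Ndufa4, first described as a complex I subunit and now placed in complex IV, had the highest median, 179.7 FPKM. It was followed by Ndufc2 with 54.8, Ndufb9 with 53.4, Ndufb11 with 53.1 and Ndufa6 with 47.5 FPKM. The lowest medians among those that passed were 2.88 FPKM for Ndufb2 and 4.09 FPKM for Ndufb7. The 4 assembly factors had medians of 18.0 for Ndufaf2, 10.1 for Ndufaf3, 9.90 for Ndufaf1 and 6.76 FPKM for Ndufaf4, ranks 18, 32, 33 and 36 of 42.

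This order depends on the length by which each gene was divided, the union of all its annotated exons. For Ndufb7 that union is 4522 bp long and its main coding transcript 623 bp, and with the transcript length Ndufb7 moved from rank 40 to rank 16. Ndufa7 moved from rank 17 to 4 and Ndufa3 from 10 to 2 in the same way, while Ndufa4 kept rank 1. The comparisons between groups are within a gene, where the length acts through the filter and through the pseudocount of 1, which shrinks the differences of genes with a low FPKM. For Ndufb7, the log2 difference by genotype in CD150lo HSC went from -0.59 with a pseudocount of 1 to -0.73 with one of 0.1. Exons of Ndufb11 overlap those of Rbm10, those of Ndufa13 overlap Tssk6, those of Ndufa2 overlap Tmco6, those of Ndufb5 overlap Mrpl47 and those of Ndufs3 overlap Kbtbd4, each on the opposite strand. Those of Ndufb6 and Ndufs1 also overlap a gene on the opposite strand, 2010003O02Rik and Gm11602. Exons of Ndufb2 overlap Adck2 on the same strand and Braf and Gm16272 on the opposite one. Those of Ndufb8 overlap a further entry of that name on the same strand. The libraries did not keep the strand, so reads of such partners cannot be told apart.

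The promoters of the complex I genes were searched for motifs of factors known to drive nuclear respiratory genes. RefSeq windows (GRCm38.p6) from 250 bases before to 50 after a transcription start were at hand for 37 of the 42 genes. The motif of nuclear respiratory factor 1 was found on either strand in 8 of the 37 (21.6%), among them Ndufa6, Ndufs6 and Ndufaf4, against 5.19% of the 27025 genes with a window. The YY1 motif AAGATGGC was found in 7 (18.9%), Ndufs6 included, against 3.19%, and the ETS motif CCGGAAG, which GABP binds, in 5 (13.5%) against 9.93%. The motif TCAAGGTCA of oestrogen-related receptors was in none of the 37 and in 0.466% of all genes with a window. No match in these windows overlapped a match of another motif. A match is a description of the letters in the window only. The shares over all genes with a window include genes that did not pass the filter on low values, and no share over those that passed was taken.

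The 120 bases before the start are shown for 5 genes that hold a match there and that later comparisons turn on, 5′ to 3′ on the strand of the gene, with the match in capitals. They are an N module gene among the leading genes of CD150hi HSC, the leading gene of CD150lo HSC, the core subunit with the largest positive difference in CD150neg MPP and a pair of assembly factors. The match of Ndufs6 (chr13:73328483-73328602, minus strand) is to the nuclear respiratory factor 1 motif on the opposite strand and begins 16 bases before the start, and that of Ndufaf4 (chr4:24897963-24898082, plus strand) reads the same way on both strands and begins 113 bases before it. The ETS matches of Ndufb7 (chr8:83566638-83566757, plus strand), Ndufs3 (chr2:90904722-90904841, minus strand) and Ndufaf1 (chr2:119662835-119662954, minus strand) begin 20, 27 and 18 bases before the start.
Ndufs6: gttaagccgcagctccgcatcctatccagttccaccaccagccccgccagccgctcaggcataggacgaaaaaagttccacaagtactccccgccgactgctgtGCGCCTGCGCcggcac
Ndufaf4: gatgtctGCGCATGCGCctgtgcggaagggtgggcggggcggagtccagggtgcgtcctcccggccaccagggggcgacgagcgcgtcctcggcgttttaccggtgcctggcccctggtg
Ndufb7: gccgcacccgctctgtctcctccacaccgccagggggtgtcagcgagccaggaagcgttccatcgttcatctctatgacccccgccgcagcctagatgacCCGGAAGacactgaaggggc
Ndufs3: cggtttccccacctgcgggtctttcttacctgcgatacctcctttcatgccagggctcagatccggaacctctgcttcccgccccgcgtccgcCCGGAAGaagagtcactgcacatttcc
Ndufaf1: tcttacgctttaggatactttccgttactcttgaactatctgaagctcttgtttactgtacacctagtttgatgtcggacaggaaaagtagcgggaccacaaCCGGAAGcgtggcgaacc

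In CD150hi HSC, most complex I genes were lower in 5A3+/del mice than in WT mice, but none passed the test after adjustment. Of the 41 genes, whose log2 differences ran from -0.98 to 0.39, 33 had a lower mean in 5A3+/del cells, against 49.3% of all 15409 genes tested, and their median log2 difference was -0.16, against 0.0044 over all genes. None had an adjusted p under 0.05 in limma, where 0.156% of all genes did. At an unadjusted p under 0.05 there were 9, all lower (Ndufa6, Ndufs6, Ndufb10, Ndufb5, Ndufa13, Ndufb11, Ndufb4, Ndufv2 and Ndufa1), against 6.79% of all genes in that direction. A lower level in such bulk samples can come from fewer cells that express a gene or from less RNA per cell, and these cannot be told apart. The medians of other gene lists also differed between the genotypes there. The summed FPKM of 5 erythroid markers was 7.61 to 12.7 (median 9.14) in WT and 4.91 to 16.8 (median 5.55) in 5A3+/del CD150hi HSC. That of 3 megakaryocyte markers was 21.0 to 48.9 (median 44.7) in WT and 21.7 to 42.6 (median 29.6) in 5A3+/del mice, and that of 8 proliferation genes was 93.2 to 144 (median 102) and 92.9 to 133 (median 113). The ranges overlapped in all 3 lists, and their part in the results was not tested.

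Most parts of the enzyme held lower values. All 7 nuclear core subunits were lower, with a median log2 difference of -0.23 (range -0.37 to -0.094), as were all 9 supernumerary subunits of the proximal membrane arm, with a median of -0.17. In the distal membrane arm 8 of 11 were lower, and in the N module 5 of 7. Of the 2 supernumerary subunits of the Q module 1 was lower and 1 higher, with a median of 0.079. The exceptions with the largest positive differences were Ndufb2, at 0.39, and Ndufa9, at 0.30, both chosen after their values were seen. Ndufb2 had the lowest median of the genes that passed, 2.88 FPKM, and its exons overlap those of other genes. Genes with an exon length between the quartiles of the subunits, 861 to 2151 bp, had a median difference of -0.031. Subunits such as Ndufa6 (560 bp) and Ndufb7 (4522 bp) lie outside that range. The library from 5A3+/del replicate 1 had the lowest subunit mean of all, and without that mouse 31 of 41 genes were lower and the subunit median was -0.13. That library also had the fewest genes above 0 FPKM of all, 17346. The same mouse had 18927 in CD150lo HSC and 18443 in CD150neg MPP. WT CD150hi HSC replicate 2 had the next fewest, 17504, and the part of such libraries in the results was not tested.

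**Figure D1:**
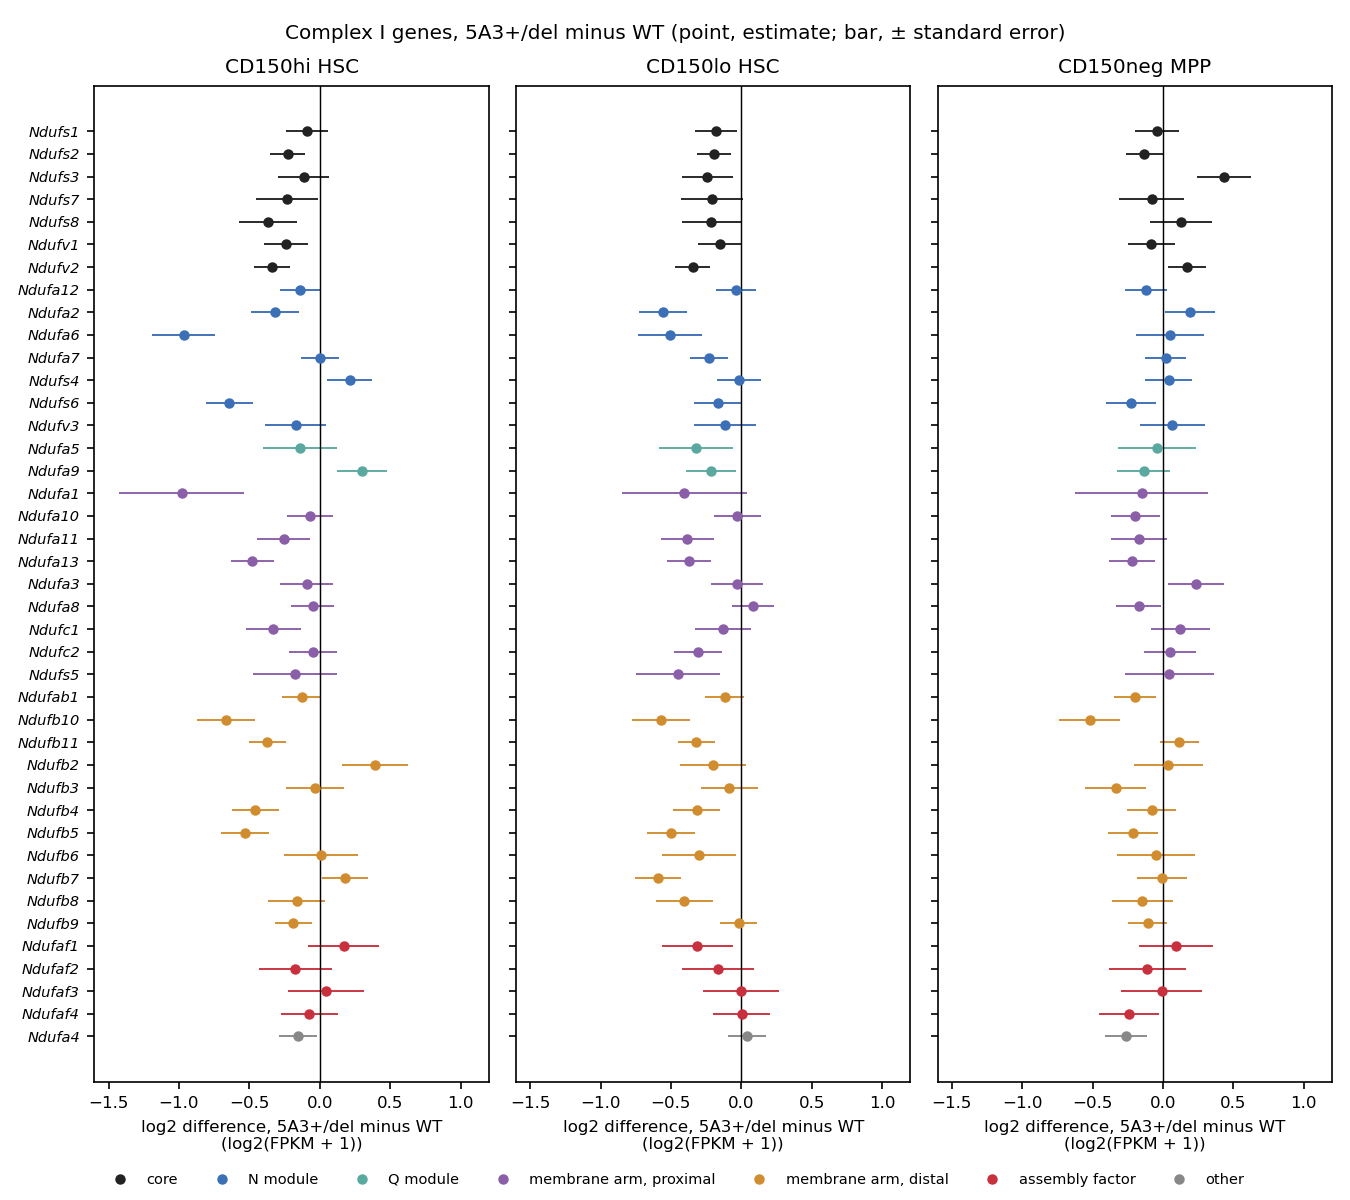
Log2 difference between 5A3+/del and WT (x axis, log2(FPKM + 1) scale) for each of the 41 genes that passed the filter, Ndufa4 included (y axis, coloured by class or module), in 1 panel for each population. Points are limma estimates and bars ± 1 standard error. Most points lie left of 0 in CD150hi HSC (33 of 41) and CD150lo HSC (38 of 41), while 26 of 41 do in CD150neg MPP.

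Ndufa6, a subunit of the N module that binds the mitochondrial acyl carrier protein, had the smallest p-value. Its normalized FPKM was 79.9, 71.7, 55.1, 69.1 and 67.6 in WT CD150hi HSC replicates 1 to 5 and 15.3, 41.9, 46.4, 35.9 and 44.2 in the 5A3+/del replicates. Every 5A3+/del library lay below every WT library, and 5A3+/del replicate 1 was far below its group. The mean was 36.8 ± 12.6 (SD, n = 5) against 68.7 ± 8.95 (n = 5), or 53.5% of WT, with a log2 difference of -0.97 (SE 0.226, adjusted p = 0.0605). The exact two-sided permutation test over mice gave p = 0.00794, the smallest that 5 against 5 allows. Any gene whose groups do not overlap gets this p, as does Ndufb7 in CD150lo HSC below, so it adds nothing to the lack of overlap. The adjusted p ranged from 0.0317 to 0.426 over the alternatives and fell to 0.0317 with an intensity trend in limma and to 0.0348 among genes that reached 10 FPKM. Without 5A3+/del replicate 1 the log2 difference was -0.69 (adjusted p = 0.0690). Ndufv2 was the other gene whose groups did not overlap, at 12.2 to 16.3 against 16.7 to 19.96 normalized FPKM. For comparison, 1.48% of all genes were lower without overlap.

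Ndufs6, a zinc-binding N module subunit that joins late in assembly, was next. Its normalized FPKM was 28.7, 31.0, 19.6, 21.9 and 24.8 in WT and 9.32, 16.4, 20.2, 19.2 and 15.1 in 5A3+/del CD150hi HSC. The groups overlapped only where the 5A3+/del replicate with the highest value exceeded the lowest WT replicate, and the log2 difference was -0.64 (SE 0.165, adjusted p = 0.0889).

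Subunits of the membrane arm made up the rest of the leading 5. Ndufb10, of the distal arm, was at 36.5, 13.3, 25.3, 19.0 and 25.5 in WT and 9.89, 12.9, 17.5, 14.8 and 15.9 normalized FPKM in 5A3+/del mice, with a log2 difference of -0.67 (SE 0.206, adjusted p = 0.152). A low WT replicate 2 made its groups overlap. Ndufb5, of the same arm, was at 18.3, 23.9, 18.8, 26.0 and 17.9 in WT and 13.3, 12.9, 19.7, 12.8 and 12.4 in 5A3+/del mice, with a log2 difference of -0.53 (SE 0.169, adjusted p = 0.162). Here 4 of the 5A3+/del libraries were close together below all WT libraries, and replicate 3 lay among the WT values. Ndufa13, also known as GRIM-19, of the proximal arm, was at 49.8, 44.8, 33.4, 47.6 and 45.4 in WT and 23.7, 35.6, 31.1, 27.4 and 40.7 in 5A3+/del mice, with a log2 difference of -0.48 (SE 0.155, adjusted p = 0.175). Its WT replicate 3 stood below the other WT libraries, and 2 of the 5A3+/del libraries lay above it.

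The X-linked Ndufa1, of the proximal arm, had the lowest log2 difference, -0.98 (SE 0.445, adjusted p = 0.344), and also the largest spread between libraries of a group among the 41 genes, with a residual SD of 0.744 on the log2 scale. Its normalized FPKM was 38.8, 21.5, 35.0, 21.1 and 27.6 in WT and 1.54, 19.0, 33.3, 26.2 and 13.3 in 5A3+/del mice. The value of 5A3+/del replicate 1 rested on 12 fragments, replicates 3 and 4 lay within the WT range, and replicates 2 and 5 were below it. Ndufa1 is described because of this library, after its values were seen.

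In CD150lo HSC nearly all complex I genes were lower in 5A3+/del mice, and again none passed the adjusted threshold. Of the 41 genes, whose log2 differences ran from -0.59 to 0.081, 38 had a lower mean in 5A3+/del cells, against 48% of all genes, and 35 of the 36 subunits were among them, Ndufa8 being the exception. The median log2 difference of the subunits was -0.22, against 0.011 over all genes. It was -0.027 over genes with an exon length between the quartiles of the subunits. None had an adjusted p under 0.05 in limma, with 0.0324% of all genes called in this comparison, and 8 had an unadjusted p under 0.05, all lower, against 4.09% of all genes. Of these, Ndufa6, Ndufa13, Ndufb5, Ndufb10, Ndufb11 and Ndufv2 were also among those of CD150hi HSC. Both comparisons draw on the same mice. The summed FPKM in CD150lo HSC was 12.2 to 24.2 (median 14.9) in WT and 8.63 to 17.1 (median 12.5) in 5A3+/del mice for the erythroid markers and 25.9 to 42.1 (median 28.0) and 26.6 to 46.0 (median 36.4) for the megakaryocyte markers. For the proliferation genes it was 114 to 155 (median 123) and 113 to 156 (median 137), and the part of these lists was not tested.

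Ndufb7, a distal membrane arm subunit that faces the intermembrane space, led in CD150lo HSC. Its normalized FPKM was 4.43, 5.53, 5.21, 5.87 and 4.43 in WT and 2.39, 3.20, 3.30, 3.31 and 3.01 in 5A3+/del mice, without overlap, and the log2 difference was -0.59 (SE 0.165, adjusted p = 0.219) (exact two-sided permutation test, p = 0.00794). In CD150hi HSC the same gene was at 4.20, 2.64, 4.23, 4.05 and 5.06 in WT and 3.53, 7.54, 4.49, 5.08 and 3.35 in 5A3+/del mice, where the groups overlapped and the log2 difference was 0.18 (SE 0.165, adjusted p = 0.696). Ndufb5 was at 20.4, 23.6, 22.2, 20.8 and 19.6 in WT and 12.9, 16.2, 18.0, 11.5 and 16.2 in 5A3+/del mice in CD150lo HSC, also without overlap, with a log2 difference of -0.50 (SE 0.169, adjusted p = 0.385). These were the 2 genes lower without overlap in this population, against 0.876% of all genes.

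Ndufa2, an N module subunit with a thioredoxin-like fold, was at 61.1, 42.2, 43.8, 45.8 and 30.3 in WT and 31.0, 30.6, 29.2, 29.8 and 26.2 in 5A3+/del CD150lo HSC, with a log2 difference of -0.56 (SE 0.170, adjusted p = 0.281). The 5A3+/del libraries were close together, and only WT replicate 5 fell among them. Ndufb10 was at 33.99, 24.5, 19.2, 28.5 and 20.01 in WT and 14.5, 15.6, 15.2, 20.9 and 15.7 in 5A3+/del mice, with a log2 difference of -0.57 (SE 0.206, adjusted p = 0.468). Its 5A3+/del replicate 4 exceeded WT replicates 3 and 5. Ndufv2, a core subunit that holds an iron-sulphur cluster beside the flavin, was at 24.4, 20.2, 18.9, 17.5 and 15.8 in WT and 11.2, 16.1, 18.8, 13.0 and 16.3 in 5A3+/del mice, with a log2 difference of -0.35 (SE 0.127, adjusted p = 0.487), and its groups overlapped.

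In CD150neg MPP the complex I genes had mixed signs. Of the 41 genes, whose log2 differences ran from -0.52 to 0.43, 26 were lower in 5A3+/del cells, against 50.2% of all genes, and the median log2 difference of the subunits was -0.066. None had an adjusted p under 0.05 (0.0454% of all genes did), and at an unadjusted p under 0.05 there were Ndufb10, lower (1.99% of all genes), and Ndufs3, higher (2.28%). Ndufb10 was at 26.2, 22.1, 17.1, 20.8 and 19.4 in WT and 11.7, 17.2, 11.8 and 17.4 in 5A3+/del mice (n = 4), with a log2 difference of -0.52 (SE 0.218, adjusted p = 0.9998). It was thus lower on average in 5A3+/del mice in each of the 3 populations, and here 2 of the 5A3+/del libraries just exceeded the lowest WT library. Ndufs3, a core subunit of the Q module, was at 10.2, 17.1, 12.4, 14.8 and 13.7 in WT and 31.3, 16.8, 13.7 and 16.2 in 5A3+/del mice, with a log2 difference of 0.43 (SE 0.191, adjusted p = 0.9998). Its 5A3+/del replicate 1 was far above all others, and without that mouse the log2 difference was 0.19.

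The remaining leading genes of this population differed less. Ndufa4 was at 235, 202, 231, 203 and 197 in WT and 138, 199, 186 and 193 in 5A3+/del CD150neg MPP, with a log2 difference of -0.26 (SE 0.146, adjusted p = 0.9998). Only 1 of the 5A3+/del libraries reached the lowest WT library. Ndufb3, of the distal membrane arm, was at 26.3, 35.4, 29.7, 24.3 and 32.1 in WT and 22.3, 17.5, 22.6 and 31.9 normalized FPKM in 5A3+/del mice, with -0.34 (SE 0.216, adjusted p = 0.9998). Ndufab1, the acyl carrier protein, was at 6.89, 7.97, 6.90, 5.93 and 6.73 in WT libraries and 5.06, 5.75, 5.36 and 7.45 in 5A3+/del libraries, with -0.20 (SE 0.147, adjusted p = 0.9998). In both genes the groups overlapped.

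**Figure D2:**
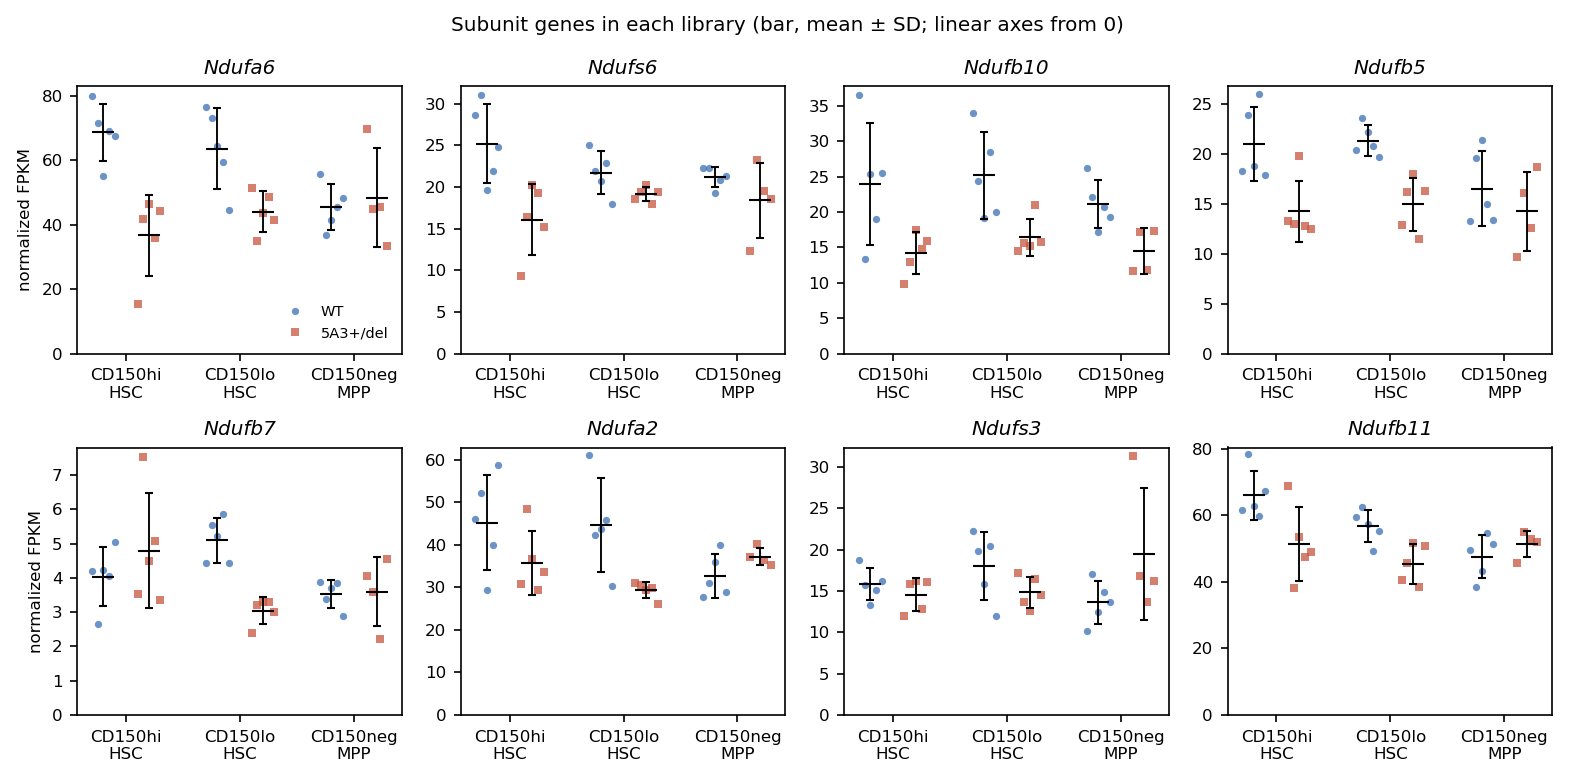
Normalized FPKM (y axis, linear, from 0) of 8 subunit genes in every library, by population (x axis) and genotype (blue circles, WT; red squares, 5A3+/del); black bars are the mean ± SD of 5 libraries, or 4 for 5A3+/del CD150neg MPP. Ndufa6 is separated by genotype in CD150hi HSC, where 5A3+/del replicate 1 lies at 15.3, and Ndufb7 and Ndufb5 are separated in CD150lo HSC.

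Subunits and assembly factors were set side by side with the mean of log2(FPKM + 1) over the genes of a class in each library. The subunit mean was 4.26, 4.23, 4.23, 4.26 and 4.42 in WT and 3.82, 4.09, 4.18, 4.14 and 4.07 in 5A3+/del CD150hi HSC. It was 4.51, 4.30, 4.30, 4.34 and 4.15 in WT and 4.02, 4.07, 4.11, 4.07 and 4.08 in 5A3+/del CD150lo HSC. In both populations every 5A3+/del library was below every WT library. In CD150neg MPP the subunit mean was 4.11, 4.09, 4.15, 4.15 and 4.13 in WT and 4.01, 4.12, 4.05 and 4.14 in 5A3+/del mice, and the ranges overlapped. The 3138 genes with an exon length between the quartiles of the subunits moved with the subunit mean in some libraries. Their median deviation from the mean of each gene over all libraries was -0.0049, -0.027, -0.038, -0.011 and 0.035 in WT and -0.094, -0.024, -0.017, -0.029 and -0.036 in 5A3+/del CD150hi HSC, on the log2 scale and in the order of the replicates. It was 0.043, 0.0094, 0.017, 0.025 and -0.039 in WT and -0.030, 0.0014, -0.027, -0.015 and -0.018 in 5A3+/del CD150lo HSC. The lowest value of all belonged to 5A3+/del CD150hi HSC replicate 1 and the highest to WT CD150lo HSC replicate 1, which also had the lowest and the highest subunit mean, and in both populations the ranges of the genotypes overlapped. The part of these genes in the separation of the subunit means was not tested. No test is given for these means, since the genes were chosen with earlier results of these data known.

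The assembly factor mean did not part the genotypes in any population. It was 3.73, 2.99, 3.73, 3.10 and 3.43 in WT and 3.00, 3.48, 3.42, 3.63 and 3.40 in 5A3+/del CD150hi HSC, so the WT libraries alone spanned the whole range of the 5A3+/del libraries. In CD150lo HSC it was 3.82, 3.71, 3.65, 3.503 and 3.65 in WT and 3.54, 3.42, 3.65, 3.55 and 3.58 in 5A3+/del mice. In CD150neg MPP it was 3.47, 3.45, 3.38, 3.55 and 3.42 in WT mice and 3.36, 2.85, 3.71 and 3.63 in 5A3+/del mice. The median log2 difference by genotype of the 4 assembly factors was -0.015, -0.083 and -0.061 in CD150hi HSC, CD150lo HSC and CD150neg MPP, beside -0.17, -0.22 and -0.066 for the 36 subunits. The first of these was 0.12 for the assembly factors without 5A3+/del replicate 1, and the third was 0.18 without 5A3+/del replicate 2. The pooled SD between libraries of a group was 0.232 for the assembly factor mean and 0.0912 for the subunit mean. Within CD150lo HSC the SD of the assembly factor mean was 0.114 in WT and 0.0810 in 5A3+/del mice. Whether the classes differ in their response was not tested.

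**Figure D3:**
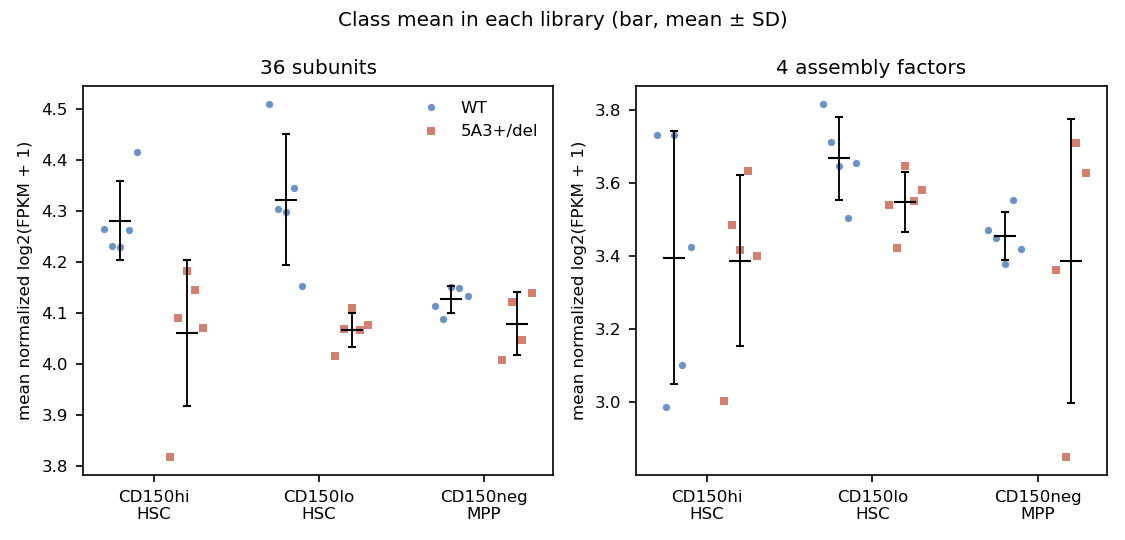
Mean normalized log2(FPKM + 1) over 36 subunits (left) and 4 assembly factors (right) in each library, by population (x axis) and genotype (blue circles, WT; red squares, 5A3+/del); black bars are mean ± SD, and the y axes do not start at 0. The subunit means of 5A3+/del CD150hi HSC and CD150lo HSC lie at 3.82 to 4.18 and 4.02 to 4.11, below all WT libraries of the same population, and the assembly factor means overlap.

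Each assembly factor was examined in every library. Ndufaf1, which works in the complex that builds the membrane arm, was at 11.7, 4.11, 13.2, 7.98 and 9.44 in WT and 6.31, 11.8, 9.59, 12.3 and 10.8 normalized FPKM in 5A3+/del CD150hi HSC, with a log2 difference of 0.17 (SE 0.250, adjusted p = 0.825). In CD150lo HSC it was at 14.1, 13.4, 10.7, 10.1 and 8.76 in WT and 7.70, 10.54, 10.53, 5.67 and 11.0 in 5A3+/del mice, with -0.31 (SE 0.250, adjusted p = 0.922), and in CD150neg MPP at 5.58, 11.5, 7.26, 7.45 and 7.69 in WT and 6.32, 5.51, 11.5 and 11.5 in 5A3+/del mice, with 0.093 (SE 0.265, adjusted p = 0.9998). The groups overlapped in all 3 populations, and the difference had no common direction. The lowest of the 29 libraries was WT CD150hi HSC replicate 2.

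Ndufaf2, a chaperone that holds the place of a late N module subunit, was at 24.6, 14.3, 30.3, 8.36 and 31.5 in WT and 19.2, 20.8, 15.0, 16.2 and 15.9 in 5A3+/del CD150hi HSC, with a log2 difference of -0.17 (SE 0.256, adjusted p = 0.826). The WT libraries were spread from 8.36 to 31.5, and all 5A3+/del libraries lay within them. In CD150lo HSC it was at 20.1, 23.3, 19.3, 20.01 and 20.3 in WT and 13.5, 15.5, 18.5, 28.7 and 18.0 in 5A3+/del mice, with -0.16 (SE 0.256, adjusted p = 0.976), and in CD150neg MPP at 16.2, 12.9, 15.2, 18.6 and 17.2 in WT and 13.5, 9.34, 16.3 and 22.1 in 5A3+/del mice, with -0.11 (SE 0.271, adjusted p = 0.9998). Its mean was lower in 5A3+/del mice in each population, with overlap throughout.

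Ndufaf3 and Ndufaf4, whose proteins act together on the Q module and its membrane anchor, showed no difference by genotype beyond their spread. Ndufaf3 was at 11.9, 6.91, 9.56, 8.78 and 5.69 in WT and 4.72, 12.1, 11.9, 9.27 and 7.25 in 5A3+/del CD150hi HSC, with a log2 difference of 0.044 (SE 0.269, adjusted p = 0.967). In CD150lo HSC it was at 12.7, 7.12, 11.3, 11.0 and 11.6 in WT and 12.5, 7.49, 11.6, 10.9 and 10.9 in 5A3+/del mice, with -0.0022 (SE 0.269, adjusted p = 0.999), and in CD150neg MPP at 11.5, 9.19, 9.66, 14.2 and 9.68 in WT and 21.8, 4.86, 13.3 and 8.53 in 5A3+/del mice, with -0.011 (SE 0.286, adjusted p = 0.9998). In the last group 5A3+/del replicates 1 and 2 were the highest and the lowest of all libraries of that population. Ndufaf4 was at 6.44, 5.43, 5.61, 5.60 and 4.87 in WT and 3.90, 3.26, 4.95, 9.08 and 6.59 in 5A3+/del mice in CD150hi HSC, with -0.073 (SE 0.202, adjusted p = 0.914). In CD150lo HSC it was at 8.08, 9.43, 7.42, 4.92 and 8.61 in WT and 9.81, 7.18, 7.64, 6.96 and 6.54 in 5A3+/del mice, with 0.0031 (SE 0.202, adjusted p = 0.999), and in CD150neg MPP at 9.73, 7.06, 7.19, 6.57 and 6.73 in WT and 3.602, 5.86, 8.46 and 7.47 in 5A3+/del mice, with -0.24 (SE 0.215, adjusted p = 0.9998). In CD150lo HSC the genotype means of both genes lay far closer to each other than the libraries of a group.

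**Figure D4:**
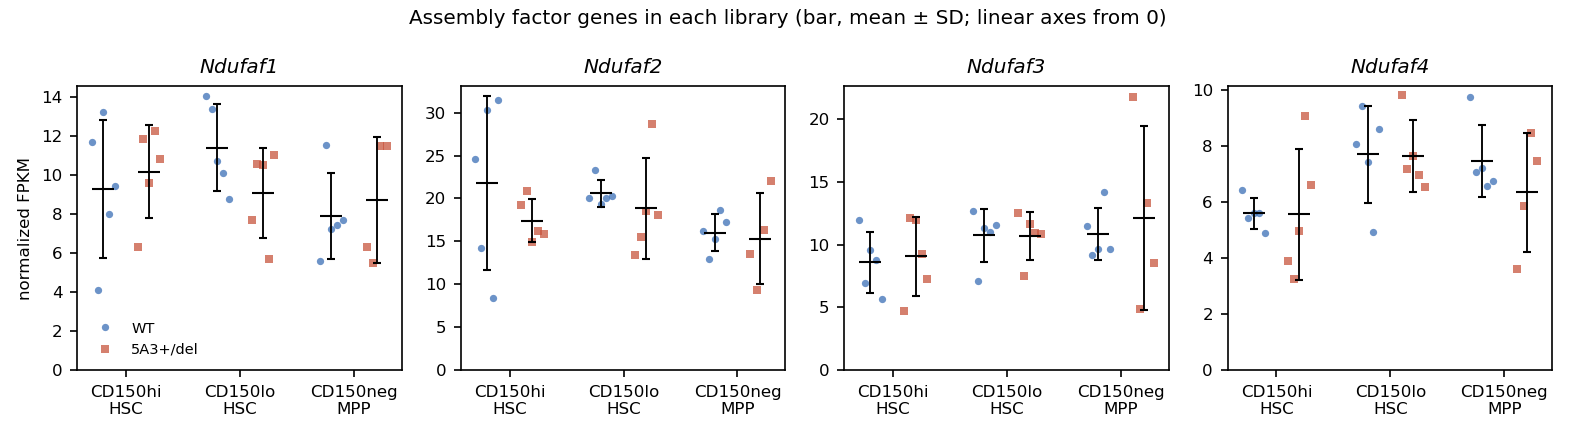
Normalized FPKM (y axis, linear, from 0) of the 4 assembly factor genes in every library, by population (x axis) and genotype (blue circles, WT; red squares, 5A3+/del); black bars are the mean ± SD. The genotypes overlap in every panel and population, with 5A3+/del CD150neg MPP replicate 1 at 21.8 for Ndufaf3.

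The table holds other genes of the complex under names that do not begin with Nduf. Of 12 further assembly factors listed by known function, 6 were lower and 6 higher in 5A3+/del CD150hi HSC, with a median log2 difference of -0.016. In CD150lo HSC the median was -0.030, in CD150neg MPP it was -0.061, and in limma no member of this list had an adjusted p under 0.05 by genotype. The genes now called Ndufaf5, Ndufaf6, Ndufaf7 and Ndufaf8 stand under older symbols and were added after the files were seen, with log2 differences in CD150hi HSC of -0.13, 0.59, -0.36 and -0.70. The median of these 4 genes was -0.25 in CD150hi HSC and -0.21 in CD150lo HSC, beside -0.17 and -0.22 for the 36 subunits. In both, 3 of the 4 were lower (49.3% and 48% of all genes). In CD150neg MPP their median was 0.085, and 3 of 4 were higher (49.8% of all genes). The signs were therefore mixed among assembly factors outside the name rule as well. Of the 7 mitochondrially encoded core subunits, the mt-Nd genes, 6 were higher in 5A3+/del CD150hi HSC (50.7% of all genes were), with a median of 0.34 and no adjusted p under 0.05. In CD150lo HSC 4 of 7 were higher (52% of all genes), with a median of 0.085 and a range of -0.68 to 0.53, and in CD150neg MPP 6 of 7 (49.8%), with a median of 0.067. The smallest adjusted p in CD150hi HSC was 0.111, for mt-Nd1, at a log2 difference of 0.57. In that population the nuclear subunits were lower and the mitochondrial ones higher on average, and mitochondrial ribosomal RNA took 23.4% to 30.2% of the fragments in 5A3+/del and 23.3% to 29.7% in WT CD150hi HSC.

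Nuclear genes of the other respiratory complexes are given for comparison. In CD150hi HSC the median log2 difference by genotype was -0.13 over 4 genes of complex II, -0.019 over 9 of complex III, -0.15 over 11 of complex IV and -0.22 over 15 of complex V, where Atp5e, a subunit of the rotary stalk named after its value was seen, was the 1 gene with an adjusted p under 0.05, at a log2 difference of -0.75 (adjusted p = 0.048). In CD150lo HSC the medians were -0.14, -0.27, -0.20 and -0.24 in the same order. The medians of the complex I subunits, -0.17 and -0.22, were within the range of these. After removal of the group means, the mean pairwise correlation across the 29 libraries was 0.0610 among the subunits, 0.112 among the assembly factors and 0.0359 between the classes, against 0.685 among the mt-Nd genes. Among the 5 genes whose promoters are printed, the log2 difference in CD150hi HSC ran from -0.64 for Ndufs6 to 0.18 for Ndufb7. The correlations are descriptions over genes that share libraries, mice and depth.

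The populations were then compared within each genotype, from CD150hi HSC through CD150lo HSC to CD150neg MPP. In WT mice the subunits were lower on average in CD150neg MPP than in either HSC population. The median log2 difference of the 36 subunits was 0.024 between CD150lo and CD150hi HSC, -0.20 between CD150neg MPP and CD150lo HSC and -0.16 between CD150neg MPP and CD150hi HSC, against 0.0027, 0.0072 and 0.0070 over all genes. Of the 41 genes, 35 were lower in CD150neg MPP than in CD150lo HSC (48.9% of all genes), and 28 were lower than in CD150hi HSC (49.1%). The subunit mean of CD150lo HSC was above that of CD150hi HSC in 4 of 5 mice and below it in 1, with a step of 0.041 ± 0.186 (SD, n = 5) and a range of -0.26 to 0.25. The mouse with the lower value was WT replicate 5, and without it the median between CD150lo and CD150hi HSC was 0.12. The subunit mean of CD150neg MPP was below that of CD150hi HSC in 5 of 5 mice, with a step of -0.15 ± 0.0776 (SD, n = 5), and below that of CD150lo HSC in 5 of 5, with a step of -0.20 ± 0.136. The summed FPKM of 3 markers of lymphoid-primed cells also moved with the population, with medians of 3.17, 40.3 and 67.7 in WT mice and 3.55, 31.95 and 53.6 in 5A3+/del mice, and its part in the differences was not tested. Across CD150hi HSC, CD150lo HSC and CD150neg MPP the medians of the erythroid markers were 9.14, 14.9 and 16.003 in WT and 5.55, 12.5 and 10.2 in 5A3+/del mice, and those of the megakaryocyte markers 44.7, 28.0 and 31.0 and 29.6, 36.4 and 24.5. The medians of the proliferation genes went up along the same order, from 102 to 124 in WT and from 113 to 146 in 5A3+/del mice, and the part of these lists was not tested either.

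Single genes in WT mice rarely passed the test. Ndufb11, an X-linked subunit of the distal membrane arm, was the only member with an adjusted p under 0.05 between CD150neg MPP and CD150hi HSC, where 10% of all genes passed. It was at 61.6, 78.4, 62.8, 59.7 and 67.4 in CD150hi HSC and 49.7, 38.6, 43.4, 54.8 and 51.3 normalized FPKM in CD150neg MPP of WT replicates 1 to 5. All 5 mice were lower in CD150neg MPP and the groups did not overlap (4.6% of all genes were lower without overlap), with a log2 difference of -0.47 (SE 0.132, adjusted p = 0.0208). With the mouse as a block the call held, but the adjusted p rose to 0.187 without WT replicate 2, 0.0724 without WT replicate 3 and 0.0600 without WT replicate 5, and it was 0.0531 without quantile normalization, over a range of 0.00901 to 0.187 in the alternatives. WT replicate 3 was the mouse with Xist transcripts named above. CD150lo HSC were between on average, at 59.6, 62.4, 57.4, 49.4 and 55.3.

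Ndufa4 had the opposite sign, at 161, 166, 184, 163 and 149 in CD150hi HSC and 235, 202, 231, 203 and 197 in CD150neg MPP of WT mice. It was higher in CD150neg MPP in 5 of 5 mice without overlap (4.03% of all genes), with a log2 difference of 0.37 (SE 0.138, adjusted p = 0.0949). Ndufa6 was at 79.9, 71.7, 55.1, 69.1 and 67.6 in CD150hi HSC and 55.8, 36.8, 41.4, 45.4 and 48.4 in CD150neg MPP, lower in 5 of 5 mice, with -0.59 (SE 0.226, adjusted p = 0.109). Ndufa2 was at 46.0, 52.0, 29.4, 39.9 and 58.6 in CD150hi HSC and 27.7, 31.0, 35.997, 39.9 and 28.9 in CD150neg MPP, lower in 4 of 5 mice, with -0.43 (SE 0.170, adjusted p = 0.118). Ndufv2 was at 18.6, 19.3, 16.7, 16.8 and 19.96 in CD150hi HSC and 14.0, 13.5, 14.1, 14.6 and 17.3 in CD150neg MPP, lower in 5 of 5 mice, with -0.30 (SE 0.127, adjusted p = 0.151). None of these 4 genes passed the adjusted threshold in the fit of all 29 libraries. Without 5A3+/del replicate 1, whose spread enters the shared error, the adjusted p in WT mice was 0.0265 for Ndufa4 and 0.00978 for Ndufa6, and without WT replicate 3 it was 0.0324 for Ndufa2. The smallest p that an exact sign permutation over 5 mice allows is 0.0625.

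No member was called between CD150lo and CD150hi HSC of WT mice, where 3.53% of all genes were, and none had an unadjusted p under 0.05 (14.1% of all genes). Between CD150neg MPP and CD150lo HSC none was called either (0.188% of all genes), and 5 had an unadjusted p under 0.05, all lower, against 5.05% of all genes. They were Ndufv2, Ndufb7, Ndufa2, Ndufa5 and Ndufb5, chosen here by that p, with log2 differences of -0.37, -0.42, -0.42, -0.64 and -0.37. Ndufb7 was lower in 5 of 5 mice without overlap, as was the assembly factor Ndufaf2, against 1.06% of all genes.

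In WT mice all 4 assembly factors had a higher mean in CD150lo than in CD150hi HSC, with a median log2 difference of 0.32, and 3 of 4 were lower again in CD150neg MPP, with a median of -0.19. None of these differences passed the test. From CD150hi HSC to CD150neg MPP, Ndufaf4 was higher in 5 of 5 mice without overlap (4.03% of all genes were), at 4.87 to 6.44 against 6.57 to 9.73 normalized FPKM, with a log2 difference of 0.35 (SE 0.202, adjusted p = 0.327). Ndufaf3 gave 0.33 (SE 0.269, adjusted p = 0.528), Ndufaf1 gave -0.16 (SE 0.250, adjusted p = 0.774) and Ndufaf2 gave -0.29 (SE 0.256, adjusted p = 0.569), so 2 assembly factors were higher and 2 lower. The mean over the 4 genes was higher in CD150lo than in CD150hi HSC in 4 of 5 mice, with a step of 0.271 ± 0.310 (SD, n = 5).

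In 5A3+/del mice the subunits were nearly level across the populations. The median log2 difference of the 36 subunits was -0.0076 between CD150lo and CD150hi HSC, 0.011 between CD150neg MPP and CD150lo HSC and 0.026 between CD150neg MPP and CD150hi HSC. The subunit mean of CD150neg MPP was below that of CD150hi HSC in 2 of 4 mice, with a step of 0.0210 ± 0.134 (SD, n = 4). Of the 41 genes, 22 were higher in CD150neg MPP than in CD150hi HSC (50.5% of all genes). None had an adjusted p under 0.05, against 6.16% of all genes in this comparison, 3.18% between CD150lo and CD150hi HSC and 0.0389% between CD150neg MPP and CD150lo HSC. At an unadjusted p under 0.05 there was Ndufs8 in the first, Ndufa4 and Ndufaf4 (higher) and Ndufb7 (lower) in the second and none in the third, against 16.9%, 13.3% and 4.95% of all genes. Ndufb7 was lower in CD150lo than in CD150hi HSC in 5 of 5 mice without overlap (2.34% of all genes), and Ndufa2 was higher in CD150neg MPP than in CD150lo HSC in 4 of 4 mice without overlap (1.05% of all genes).

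Ndufs8, a core subunit of the Q module with a pair of iron-sulphur clusters, was at 10.7, 26.4, 30.5, 22.4 and 20.3 in 5A3+/del CD150hi HSC and 23.0, 47.5, 32.5 and 29.9 in CD150neg MPP of replicates 1 to 4. It was higher in CD150neg MPP in 4 of 4 mice, with a log2 difference of 0.60 (SE 0.220, adjusted p = 0.12), and with the mouse as a fixed block the difference was 0.59 and the adjusted p 0.0482. Its adjusted p ranged from 0.0482 to 0.331 over the alternatives. Ndufa4 was higher in 4 of 4 mice as well, at 102, 146, 149.6, 184 and 170.4 in CD150hi HSC and 138, 199, 186 and 193 in CD150neg MPP, with 0.26 (SE 0.146, adjusted p = 0.388). A pair of distal membrane arm subunits had lower means in CD150neg MPP. Ndufb3 was at 33.1, 29.7, 31.0, 31.8 and 29.4 in CD150hi HSC and 22.3, 17.5, 22.6 and 31.9 in CD150neg MPP, with -0.41 (SE 0.216, adjusted p = 0.35). Ndufb7 was at 3.53, 7.54, 4.49, 5.08 and 3.35 in CD150hi HSC and 4.04, 3.58, 2.21 and 4.54 in CD150neg MPP, with -0.32 (SE 0.175, adjusted p = 0.372). Each of them was lower in 3 of 4 mice. Ndufa6 gave 0.43 (SE 0.240, adjusted p = 0.385). It was at 15.3, 41.9, 46.4, 35.9 and 44.2 in CD150hi HSC and 69.9, 44.9, 45.4 and 33.3 in CD150neg MPP, and its difference rested on replicate 1, since it was -0.038 without that mouse.

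Among the assembly factors of 5A3+/del mice, the log2 difference between CD150neg MPP and CD150hi HSC was -0.23 (SE 0.265, adjusted p = 0.741) for Ndufaf1 and -0.22 (SE 0.271, adjusted p = 0.763) for Ndufaf2. It was 0.27 (SE 0.286, adjusted p = 0.714) for Ndufaf3 and 0.18 (SE 0.215, adjusted p = 0.752) for Ndufaf4. The signs were those of WT mice for all 4 genes, and the median between CD150lo and CD150hi HSC was 0.17, also above 0. Each of the 4 genes was higher in CD150neg MPP in 2 mice and lower in the other two. Of the 12 assembly factors without an Nduf name, 1 passed the test between CD150neg MPP and CD150hi HSC in each genotype, against 10% of all genes in WT and 6.16% in 5A3+/del mice, a share of the list near that of all genes. Nubpl, which delivers iron-sulphur clusters, was higher in CD150neg MPP of WT mice, with a log2 difference of 0.77 (adjusted p = 0.0117), and Timmdc1, of the membrane arm and listed under an older symbol, in 5A3+/del mice, with 0.95 (adjusted p = 0.0212). These 2 tests do not compare the genotypes. When the change of this step with the genotype was tested in limma, no gene of the list was called (smallest adjusted p = 0.473).

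Whether a population difference itself changed with the genotype was tested as an interaction. No gene of the 15409 (0%) had an adjusted p under 0.05 in limma in any of the 3 interactions, complex I genes included. For the step from CD150hi HSC to CD150neg MPP, 28 of the 41 genes had a more positive difference in 5A3+/del mice (49% of all genes), with a median of 0.10. For the step from CD150lo HSC to CD150neg MPP there were 31 (48.5% of all genes), with a median of 0.21, and 7 of 7 core subunits were among them. For the step from CD150hi to CD150lo HSC there were 23 (50.1% of all genes). At an unadjusted p under 0.05 the counts of members were 4, 5 and 2, against 7.96%, 5% and 3.98% of all genes. These were Ndufa6, Ndufv2, Ndufb11 and Ndufs3, then Ndufa2, Ndufv2, Ndufs3, Ndufb7 and Ndufb11, and last Ndufb7 and Ndufa9.

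The leading interaction from CD150hi HSC to CD150neg MPP was that of Ndufa6, 1.02 (SE 0.330, adjusted p = 0.415), made of a difference of -0.59 in WT and 0.43 in 5A3+/del mice, and it fell to 0.55 without 5A3+/del replicate 1. Ndufv2 gave 0.51 (SE 0.185, adjusted p = 0.454), with -0.30 in WT and 0.21 in 5A3+/del mice. Its normalized FPKM was 14.5, 12.4, 16.1, 12.2 and 16.3 in 5A3+/del CD150hi HSC and 16.9, 16.6, 16.9 and 16.05 in CD150neg MPP, so that it was higher in CD150neg MPP in 4 of 4 5A3+/del mice and lower in 5 of 5 WT mice. Ndufb11 gave 0.49 (SE 0.192, adjusted p = 0.519), with 68.8, 38.3, 53.5, 47.4 and 49.1 in CD150hi HSC and 45.8, 55.0, 52.9 and 51.9 in CD150neg MPP of 5A3+/del mice, where replicates 1 and 3 were lower and replicates 2 and 4 higher in CD150neg MPP.

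**Figure D5:**
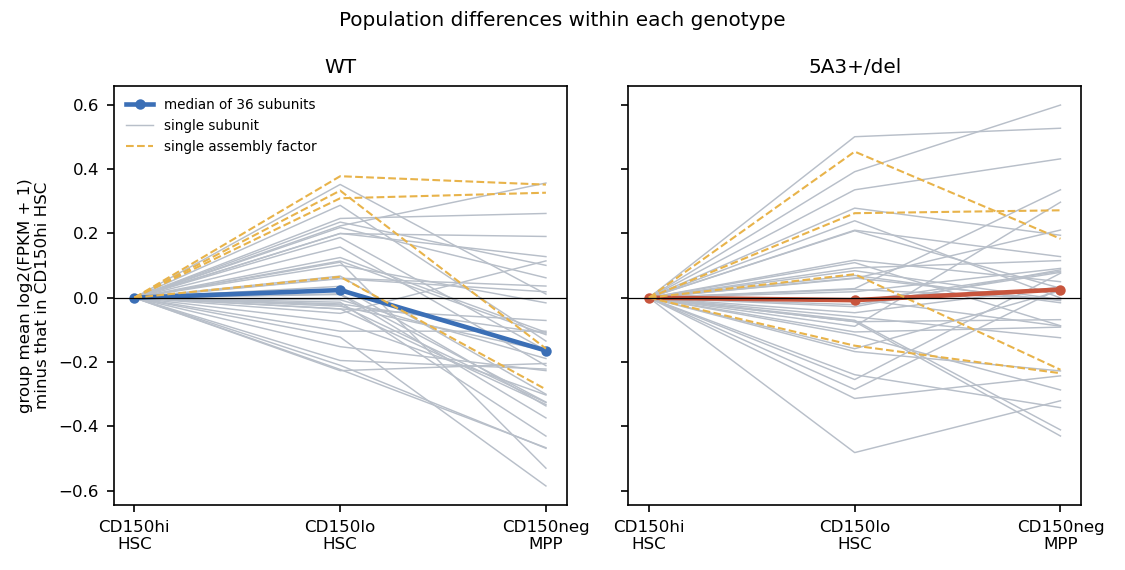
Group mean of log2(FPKM + 1) minus that in CD150hi HSC (y axis) across the 3 populations (x axis), in WT (left) and 5A3+/del mice (right). Grey lines are single subunits, dashed yellow lines single assembly factors and the thick line the median of 36 subunits, which ends at -0.16 in WT CD150neg MPP and at 0.026 in 5A3+/del CD150neg MPP.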

How the data were processed

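RNA from 29 libraries of sorted cells (10 ng each) was amplified, made into libraries with a kit that does not mark the strand and sequenced in pairs of 100-base reads. The authors deposited 1 table of FPKM (fragments scaled by exon length and library total) by gene on mm9, and the submitters' processing notes name Bowtie 0.12.2 and HTSeq without their roles. In each library 98.2% to 98.5% of low values were whole multiples of 1 fragment within 0.01, which gave totals of 21229468 to 38797734 fragments. The depth limits the lowest genes most. An SD is the spread between the libraries of a group or between the mice of a step. An SE is the moderated one of limma, with 1 estimate of the spread of a gene shared by the 6 groups. The main fit took the libraries of 1 mouse as independent.

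Values were taken as log2(FPKM + 1), 15409 of 30025 genes passed a filter of FPKM 1 or more in 4 or more libraries, and the libraries were quantile normalized. Normalized FPKM is that value taken back to the linear scale. limma 3.58.1 in R 4.3.3 was fitted to 6 group means over all 29 libraries, with two-sided tests and Benjamini-Hochberg adjustment over all genes at 0.05, for the genotypes within a population, the populations within a genotype and their interactions. Log2 differences on the FPKM + 1 scale understate the change of low genes. Single genes were also given an exact permutation test over mice. The steps were tested on simulated data. Summaries used Python 3.11.15 and pandas 2.3.3.

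The members and all gene lists were chosen with earlier results of these data known. Genes given in every library were the 5 with the largest test statistic in each genotype comparison and, in each genotype, between CD150neg MPP and CD150hi HSC, the 3 largest interactions and every assembly factor, and Ndufa1 was added after its values were seen. A group's libraries came from separate mice. Populations of 1 genotype came from the same mice: residuals of the same mouse correlated with a median r of 0.079 over 28 pairs, against -0.025 over 112 pairs of different mice, so mouse was tried as a block. The other alternatives were the pseudocount, the filter, the normalization, a limma trend, age, exon length and GC corrections, 1 population at a time and leaving out each mouse.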

Additional observations from a re-analysis of the deposited data

Results flagged for a closer look

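A gap test within groups of 4 or 5 libraries (Dixon's 95% limit) singled out 1 library in 9 of 85 groups of values. For a single unselected group, chance gives about 1 in 20. The 85 groups share libraries and hold genes picked by their test statistics, the assembly factors and the class means. No excess over chance can therefore be read from the count. Among subunits, Ndufa6 in 5A3+/del CD150hi HSC was lowest in replicate 1, at 15.3 normalized FPKM against 35.9 to 46.4 in the others. Ndufb5 in the same group was highest in replicate 3, at 19.7 against 12.4 to 13.3. Ndufa13 in WT CD150hi HSC was lowest in replicate 3, at 33.4 against 44.8 to 49.8, and Ndufb10 in 5A3+/del CD150lo HSC was highest in replicate 4, at 20.9 against 14.5 to 15.7.

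Of the assembly factors, Ndufaf2 in WT CD150lo HSC was highest in replicate 2, at 23.3 normalized FPKM against 19.3 to 20.3. Ndufaf3 was lowest in replicate 2 of CD150lo HSC in both genotypes, at 7.12 against 11.0 to 12.7 in WT and 7.49 against 10.9 to 12.5 in 5A3+/del mice, which are different mice. Ndufaf4 in WT CD150neg MPP was highest in replicate 1, at 9.73 against 6.57 to 7.19. The mean of log2(FPKM + 1) over the 36 subunits in WT CD150hi HSC was highest in replicate 5, at 4.42 against 4.23 to 4.26.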

How the results depend on the processing

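Of the counts and medians over members, 1048 recomputed values stayed near those reported and 14 moved. A median counted as near when it shifted by less than the pooled SD between libraries, 0.0912 for subunits and 0.232 for assembly factors. Several reported medians are smaller than these limits, so a change of sign could count as near. The assembly factor median by genotype in CD150hi HSC, -0.015 and up to 0.12 without 1 mouse, did so. Most comparisons had no called member to begin with. In CD150hi HSC, 1 member (Ndufa6) was called lower in 5A3+/del mice among genes with FPKM of at least 10 in at least 1 library, and 1 with a limma trend. Between CD150neg MPP and CD150hi HSC of WT mice, 0 were called lower without quantile normalization, 0 with the replicate block and a GC correction and 0 with the block and a length correction, and over the 10 fits that left out a mouse the count ran from 0 to 2, and that called higher from 0 to 1. With the replicate block as a fixed term 1 member (Ndufs8) was called higher between CD150neg MPP and CD150hi HSC of 5A3+/del mice. The block changed no other call. The cause was not tested.

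Leaving out 1 mouse, the subunit median between CD150lo and CD150hi HSC of WT mice ran from -0.0002 to 0.12 and that of the interaction between CD150neg MPP and CD150lo HSC from 0.14 to 0.25. The assembly factor median by genotype in CD150neg MPP ran from -0.17 to 0.18 and that of the interaction between CD150neg MPP and CD150hi HSC from -0.16 to 0.24.

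Uncalled differences near 0 changed sign in 36 of 1026 recomputed values of single genes. By genotype in CD150lo HSC, Ndufaf3 was 0.0435 with a GC correction, 0.0544 with a length correction and 0.0107 without quantile normalization. Ndufaf4 there was -0.0033 with the stricter filter, -0.0047 with age, -0.0169 with GC, -0.0239 with length and -0.0022 with median scaling. Leaving out 1 mouse, the difference by genotype in CD150hi HSC ran from -0.0625 to 0.31 for Ndufaf1, -0.0758 to 0.23 for Ndufaf3 and -0.25 to 0.0656 for Ndufaf4. In CD150lo HSC it ran from -0.13 to 0.11 for Ndufaf3 and -0.13 to 0.0748 for Ndufaf4, and in CD150neg MPP from -0.0501 to 0.26 for Ndufaf1, -0.30 to 0.0884 for Ndufaf2 and -0.33 to 0.32 for Ndufaf3. Between CD150neg MPP and CD150hi HSC it ran from -0.52 to 0.0388 for Ndufaf1 in WT mice, and in 5A3+/del mice from -0.0383 to 0.61 for Ndufa6, -0.43 to 0.0400 for Ndufaf2 and -0.24 to 0.71 for Ndufaf3.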
